A study of Mus musculus with 6 samples.

Results

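The 2 culture sets of 3 B16-F1 melanoma lines were compared: 3 arrays titled as the first biological replicate (set 1) against 3 titled as the second (set 2), which is all 6 arrays of the series. B16-F1 is a mouse melanoma line from the C57BL/6J strain, grown here in DMEM with serum. All cultures held a stable lentiviral vector for a short hairpin RNA (shRNA): 1 line's hairpin matches macroH2A1, another's macroH2A2, and that of the control line GFP, so no array comes from cells without a vector. MacroH2A1 and macroH2A2 are histone H2A variants with a large globular domain attached. Each line gave 1 array per set, and the comparison was made within lines and then over the 3 of them. The series' design text calls the cultures of a line independent biological replicates. The labels do not say whether the 3 cultures of a set were grown, extracted or hybridised together, nor whether a line is 1 clone or a pool, and whatever a set's arrays had in common cannot be told apart from the set itself. RNA was copied from a poly(dT) primer and labelled with biotin for an Affymetrix array, on which a probe set is a group of probes chosen from 1 transcript sequence. A value is the deposited signal, a linear intensity.

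Among the RNAs that separated the sets are long noncoding RNAs that stay in the nucleus. Malat1 is retained in nuclear speckles, the compartments where splicing factors gather, and Neat1 is the scaffold of the paraspeckle. At the other end stand some of the immediate early genes. Genes of this class are transcribed within minutes of a growth factor or stress signal, without new protein synthesis, and their short-lived mRNAs fade soon after it; Egr1 and Fos encode transcription factors, Ccn1 a secreted matrix protein and Dusp1 a phosphatase that switches MAP kinases off.

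The promoters of 3 of the lower genes are shown because the response of this class to a signal is set by elements close to the start site. One such element is the cyclic AMP response element, whose core is TGACG and whose full palindrome is TGACGTCA. The stretches are the 250 bases before the RefSeq start (build GRCm38.p6), written 5′ to 3′ on the gene's strand, with each match to TGACG on either strand in capitals.
Fos, chr12:85473640-85473889, plus strand: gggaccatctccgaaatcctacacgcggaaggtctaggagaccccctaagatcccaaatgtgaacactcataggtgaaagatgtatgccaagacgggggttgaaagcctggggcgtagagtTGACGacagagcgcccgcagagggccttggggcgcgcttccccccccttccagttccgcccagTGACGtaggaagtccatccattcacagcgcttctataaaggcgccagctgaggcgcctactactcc
Ccn1, chr3:145649986-145650235, minus strand: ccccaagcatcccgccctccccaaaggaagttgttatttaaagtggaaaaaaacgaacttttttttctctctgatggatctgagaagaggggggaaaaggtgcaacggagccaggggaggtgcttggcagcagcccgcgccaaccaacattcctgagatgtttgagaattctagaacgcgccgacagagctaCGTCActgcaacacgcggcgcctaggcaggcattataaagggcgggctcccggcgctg
Dusp1, chr17:26508473-26508722, minus strand: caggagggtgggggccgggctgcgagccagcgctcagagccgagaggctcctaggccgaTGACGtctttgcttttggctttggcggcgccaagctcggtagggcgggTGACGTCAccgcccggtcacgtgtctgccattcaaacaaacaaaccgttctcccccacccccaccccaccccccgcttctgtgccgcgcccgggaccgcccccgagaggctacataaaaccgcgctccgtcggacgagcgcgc
The Fos stretch holds 2 matches, beginning 129 and 66 bases before the start. The Ccn1 stretch holds 1, at 58 bases. The Dusp1 stretch holds 3, at 191, 143 and 140 bases, of which the last 2 overlap in 1 full TGACGTCA. Of 32851 promoters of this length in the same table, 17.8% hold at least 1 TGACG and 3.9% at least 2, and 1.55% hold TGACGTCA. A match describes the letters and is no evidence of a bound factor. Fos, Ccn1 and Dusp1 were picked by hand, and the other lower genes, Egr1 among them, are not shown. The 3 stretches therefore say nothing of how often the class holds the motif.

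Among genes read by their brightest probe set, Malat1 stood furthest up in set 1 and Egr1 furthest down. Malat1, Neat1 and 32 further long noncoding RNAs were higher in set 1, each in all 3 lines. They were 34 of 429 tested (7.93%), with 2 lower, where 2.13% of all genes were higher. Long noncoding and other genes were not matched for signal or source of the probe sequence. Egr1, Fos, Ccn1 and Dusp1 were lower in all 3 lines. Of the 1260 probe sets higher in set 1, 927 were not the brightest of their gene and had a brightest partner that did not pass the test. Brightest probe sets seldom passed in general: of 5926, 135 were higher (2.28%) and 122 lower (2.06%). Over the 22703 tested probe sets with 1 gene symbol, 1260 were higher in set 1 (5.55%) and 278 lower (1.22%) at a Benjamini-Hochberg adjusted p under 0.05 in limma's paired fit, and over all 27025 tested probe sets 2661 passed (9.85%). A probe set was tested where its mean signal reached 10.4, and differences are of log2(signal + 16), which understates the change of dim probe sets. When each gene was represented by its brightest probe set, 258 of 12088 genes were higher (2.13%) and 167 lower (1.38%), a balance that turned to 102 higher and 248 lower when each array was centred on its median.

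Differences that were large in every line were mostly higher in set 1. At least 1.5-fold in all 3 lines the same way were 468 probe sets higher in set 1 (2.06%) and 18 lower (0.0793%), or, by the brightest probe set of each gene, 40 genes higher and 8 lower. In 5129 probe sets (22.6%) the arrays of the sets did not overlap. Of the genes, 2215 were higher in set 1 in every line (18.3%) and 2308 lower in every line (19.1%). Of all 12088 genes, 1833 reached an unadjusted p under 0.05 in limma in either direction, the base for such counts in the lists below. The set accounted for 45.8% of the variance among tested probe sets, the line for 30.2% and the remainder for 24.0%. The within-line differences correlated across 22703 probe sets with 0.514 for the control and macroH2A1 lines, 0.280 for control and macroH2A2, and 0.327 for macroH2A1 and macroH2A2; probe sets are not independent, and array scaling enters all of them. Without the control line 1365 probe sets passed, without the macroH2A1 line 1337, and without the macroH2A2 line 3914.

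**Figure D1:**
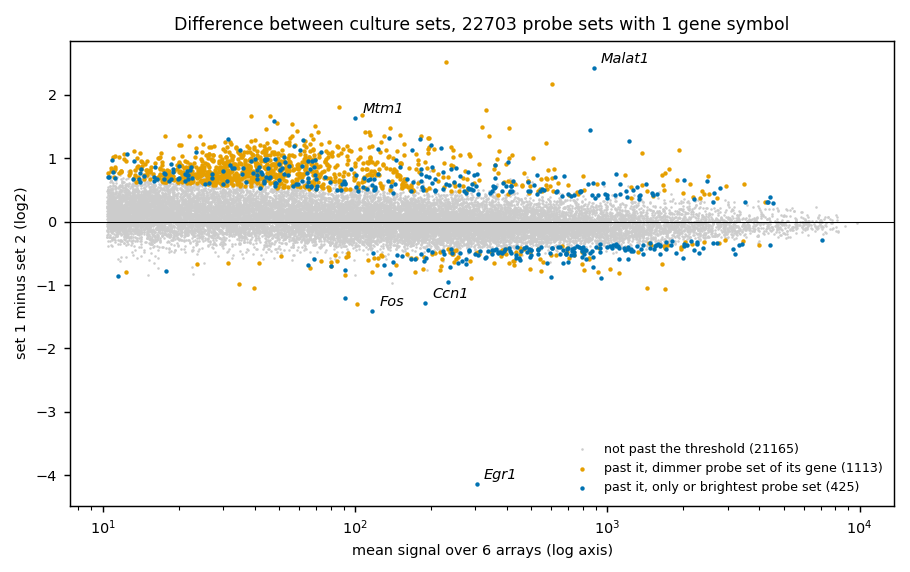
Set 1 minus set 2 (log2, vertical axis) against the mean signal over 6 arrays (log axis) for the 22703 probe sets with 1 gene symbol. Orange points are dimmer probe sets of their gene past the threshold and blue points only or brightest ones; Malat1 lies near 2.42, Egr1 near -4.14, and the orange points gather above 0 at low signal.

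The arrays of the sets also differed in ways not tied to a gene, and their part in the results was not tested. The 2% trimmed mean signal was 150.0 on every array, while the median signal was 19.5 to 24.6 in set 1 and 15.1 to 16.2 in set 2. Dim probe sets lay higher in set 1 and bright ones slightly lower: the median difference was 0.13 in genes with 1 tested probe set and a signal under 30, and -0.08 above 1000. Probe sets for 18S ribosomal RNA, which has no poly(A) tail, were higher in set 1 by a median of 0.59, 0.52 and 0.54 in the control, macroH2A1 and macroH2A2 lines, and the 24 for added poly-A spike-in RNA by 0.53, 0.42 and 0.17. The 3′ to 5′ signal ratio, a sign of RNA integrity, lay between 0.809 and 0.841 for Gapdh and between 1.24 and 1.28 for Actb on all 6 arrays. Dimmer controls were less even. The transferrin receptor's 5′ probe set read 58.5 and 22.3, 28.4 and 12.7, and 38.7 and 9.5, set 1 first, and its 3′ one differed by 0.1, -0.03 and -0.08. For 18S the mean difference was 0.26 at the 3′ end, 0.77 in the middle and 0.55 at the 5′ end. The spike-in DapX leaned the other way, with 0.32 at the 3′ and 0.15 at the 5′ end. After quantile normalization, which gives the arrays 1 distribution, 1102 probe sets passed, 85.7% of them higher in set 1, against 88.8% as deposited. Centring each array on its median left 2105, 78.4% of them higher (66.2% among those with 1 symbol, against 81.9% as deposited), and moved the median of all tested probe sets from 0.06 to -0.04.

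Malat1 had the smallest adjusted p. Its brightest probe set read 2393.9 in set 1 and 385.4 in set 2 for control cells, 1301.7 and 237.3 for the macroH2A1 line, and 831 and 156.8 for the macroH2A2 line. All set 1 arrays lay above all set 2 arrays, and the order of the lines was the same in both sets. The difference was 2.42 ± 0.11 (SE of the limma fit), or 5.35-fold (limma adjusted p = 6.24e-06). Of 7 tested probe sets for Malat1, 5 were higher in set 1 and 1 was lower; the 1 lower, made from an expressed sequence tag, read 302.1 and 484.6, 212.5 and 269.3, and 150.9 and 288.5 (-0.61, adjusted p = 0.0179), and its sets overlap. Malat1 kept its call under all 11 alternatives tried.

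Neat1 read 2694.5 in set 1 and 705.6 in set 2 for control cells, 1850.6 and 702.6 for the macroH2A1 line, and 810.7 and 554.2 for the macroH2A2 line. The set 2 arrays were close together and the set 1 arrays spread out above them, with the macroH2A2 line lowest. The difference was 1.27 ± 0.20 (SE), 2.42-fold, with a limma adjusted p of 0.00366, and a second, dim probe set for Neat1 differed by 0.29 (adjusted p = 0.436).

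Other long noncoding RNAs moved the same way at lower signal. Kcnq1ot1, the antisense RNA that silences an imprinted domain, read 78.1 against 47.1, 103.4 against 25.4 and 89.2 against 45.8, in the order control, macroH2A1, macroH2A2 and with set 1 first (difference 0.96, limma adjusted p = 0.00946). Dleu2, the host transcript of a microRNA pair, read 59.5 against 20.7, 42 against 20.2 and 39.5 against 15.9 (0.84, adjusted p = 0.00875). In both RNAs every set 1 array lay above every set 2 array. Without the macroH2A1 line the adjusted p of Kcnq1ot1 was 0.0669, without the control line that of Dleu2 was 0.0544, and after quantile normalization they were 0.0574 and 0.0602. Tug1 went the other way, with 682.2 against 763.2, 623 against 892.1 and 537.4 against 832.3 (-0.43, adjusted p = 0.0453), and its sets did not overlap either; without the macroH2A1 line its adjusted p was 0.269 and without the macroH2A2 line 0.0786.

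Of the 16 tested genes in a list of long noncoding RNAs and small nucleolar RNA hosts, 4 were higher and 1 lower, with a median of 0.11, which fell to 0.01 after median centring and to -0.03 under 1 alternative. Over all 429 tested genes that RefSeq classes as long noncoding, 34 were higher in set 1 (7.93%) and 2 lower, against 207 higher (1.80%) and 165 lower of 11522 protein coding genes. The 2 classes were not matched for signal or for the source of the probe sequence. Of all tested probe sets with 1 symbol, those made from expressed sequence tags were higher in 8.04%. The share was 5.49% for RIKEN cDNAs and 1.31% for RefSeq mRNAs. Among the 34 were Rab26os, transcribed opposite Rab26, at 1.30 (adjusted p = 0.00197), Gdap10 at 1.2 (0.00274), Lncpint at 0.86 (0.00604), Lockd at 0.84 (0.02), Mir22hg at 0.60 (0.0220), Snhg7 at 0.54 (0.0307) and Firre at 0.54 (0.0290), the last 5 picked after their values were seen.

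**Figure D2:**
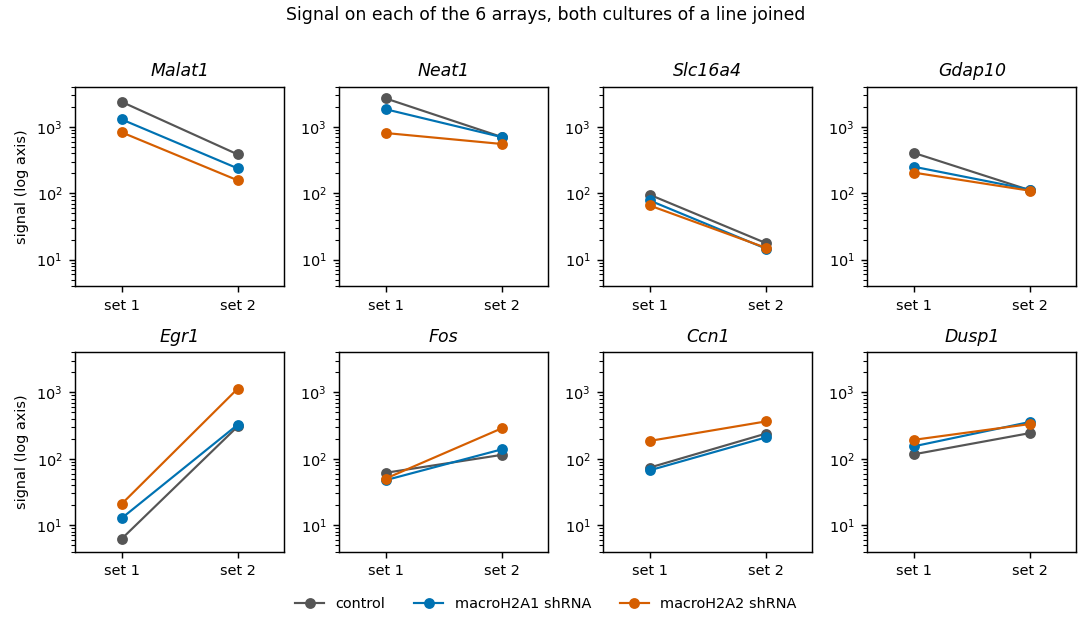
Signal of 8 genes on each of the 6 arrays (log axis), with the set 1 and set 2 culture of a line joined by a line. Malat1, Neat1, Slc16a4 and Gdap10 fall from set 1 to set 2 in all 3 lines, and Egr1, Fos, Ccn1 and Dusp1 climb in all 3.

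Among probe sets with 1 symbol, most higher calls came from a gene's weaker probe sets; over all 2364 higher calls, 1072 were of probe sets without a symbol. Many genes on this array have several probe sets, made from different mRNA records or from expressed sequence tags, which are single reads of cDNA clones and can lie in a coding exon, a far 3′ end or an intron. Of 10615 probe sets that were dimmer than another probe set of their gene, 1002 were higher in set 1, or 9.44%, against 2.28% of the 5926 brightest and 2% of the 6162 that were a gene's only tested probe set. In 927 of the 1002 the gene's brightest probe set was not called, in 48 it was higher and in 27 lower. An uncalled brightest probe set was the usual case, since of all 5926 only 2.28% were higher and 2.06% lower. The median difference was 0.78 for the dimmer probe sets called higher and 0.01 for their brightest partners. The same lean was present at matched signal: between 30 and 100, 15% of dimmer, 3.37% of brightest and 3.59% of only probe sets were higher. Probe sets that the annotation ties to no gene symbol were higher in 28.9% of 3711 cases, and in 53.9% between 30 and 100. By the source of the probe sequence, 1.31% of probe sets made from RefSeq mRNAs were higher in set 1, 1.5% of those from full-length cDNAs of the BC series, 5.49% from RIKEN cDNAs and 8.04% from expressed sequence tags. Probe sets whose identifiers end in _x_at or _s_at, among them some of those named here for Malat1, Ccn1, Pgd and Rpl41, can share sequence with other transcripts.

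**Figure D3:**
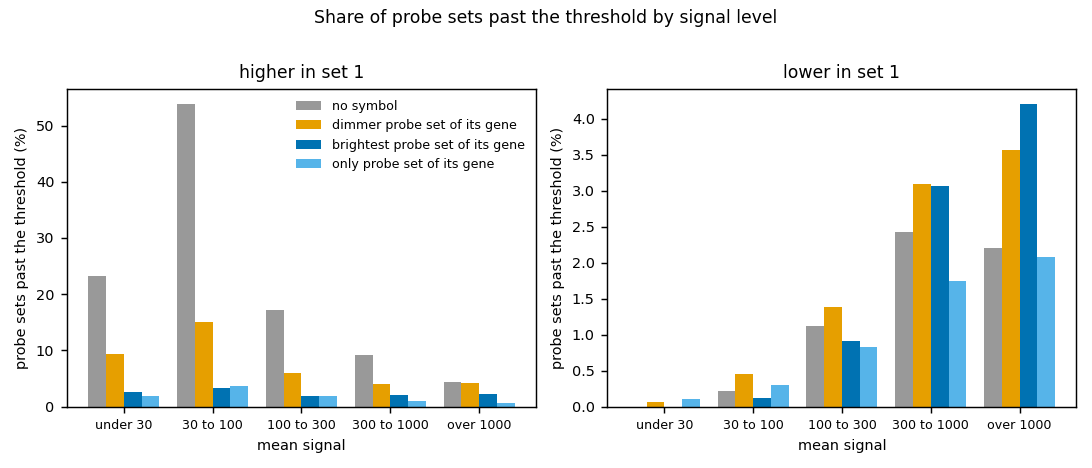
Percentage of probe sets past the threshold, higher in set 1 (left) and lower (right), by mean signal and by class of probe set; the vertical scales differ. In the 30 to 100 range the bars for higher calls stand at 53.9% without a symbol, 15% for dimmer, 3.37% for brightest and 3.59% for only probe sets.

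The contrast was then measured inside each gene, as the log2 ratio of a dimmer probe set to the brightest of the same gene, so that a factor applied to a whole array cancels in part; the 16 added to each signal keeps it from cancelling fully where signals are dim. This comparison was added after the data had been seen. Of 10615 ratios, 863 were higher in set 1 (8.13%), from 736 genes, and 82 lower (0.772%), from 74 genes (limma, adjusted over all ratios; smallest adjusted p 0.000452). A ratio shows unequal change within a gene and not which of its parts changed. The count rests on the treatment of dim signals: after quantile normalization 211 ratios were higher and 49 lower, and with a pseudocount of 1 in place of 16 the limma test called 0, with 2481 of 10615 at an unadjusted p under 0.05 (2048 of these higher) and a smallest adjusted p of 0.0557. Without the macroH2A1 line 310 ratios were higher and 25 lower, without the macroH2A2 line 512 and 47, and without the control line 989 and 233.

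The genes of this and the next paragraph were picked, after their values were seen, from the 120 with at least 2 dimmer probe sets higher in set 1, so the kinds of gene among them say nothing of the 120 as a whole. Rbm39, a splicing coactivator, had 12 tested probe sets, and 9 were higher in set 1. Its brightest read 939 and 931.9 for control cells, 942.4 and 928.8 for the macroH2A1 line, and 958 and 962.5 for the macroH2A2 line, set 1 first, and differed by 0.01. Its dimmer probe set with the largest difference read 155.7 and 66.2, 160.9 and 55, and 133.3 and 57.3 on the same arrays, and differed by 1.13 ± 0.14 (SE, limma adjusted p = 0.00160). The brightest probe set varied little over the 6 arrays on which the dimmer one separated the sets without overlap. Several probe sets of Rbm39 were made from the same tag and are not independent, which also holds for 2 of the higher probe sets each of Fubp1, Luc7l2, Rbm25, Hnrnpu, Rpl41 and Tpp2 and for 2 of the lower ones of Ccn1. Tra2a, which activates exons through splicing enhancers, had 3 of 5 probe sets higher, by 1.76, 1.48 and 1.21, while its brightest differed by 0.20 (adjusted p = 0.230). The strongest of these read 591.7 and 172.2, 582.6 and 136.4, and 376.2 and 112.3, and its ratio to the brightest was higher in set 1 by 1.56 ± 0.15 (SE, limma adjusted p = 0.00828).

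Fubp1, a single-stranded DNA and RNA binding protein, had 3 of 4 probe sets higher by 0.89 to 1.42, with the brightest at -0.11. Luc7l2, a partner of the U1 small nuclear ribonucleoprotein, had 3 of 7 higher, the largest by 1.48. Rbm25, a regulator of alternative splicing, had 3 of 6 higher by 1.05 to 1.25, with the brightest at 0.42 (adjusted p = 0.0605), and none of its ratios passed. Hnrnpu, a nuclear matrix RNA-binding protein, had 2 of 5 higher, by 1.09 and 0.76, and its brightest differed by -0.08. Rpl41, a ribosomal protein, had 2 of 4 higher by 1.47 and 1.36 with the brightest at -0.15, Rtn4, a membrane-shaping protein of the endoplasmic reticulum, 2 of 5 by 1.42 and 1.03 with the brightest at 0.02, and Zfr, a zinc finger RNA-binding protein, 3 of 5 by 0.78 to 1.07 with the brightest at -0.24. The translation regulator Bzw2, the peptidase Tpp2 and the chromatin reader Zmynd8 had 2 higher probe sets each, with ratios to the brightest that were higher in set 1 by up to 1.76, 1.63 and 1.52. In 110 of the 120 genes the brightest was not called. That was the usual case, as 2.28% of all 5926 brightest probe sets were higher and 2.06% lower. The list of SR, hnRNP and SF3 splicing factors, represented by brightest probe sets, held 1 higher gene (Ddx5, an RNA helicase, 0.29) and 1 lower (Sf3a2, a U2 component, -0.41) of 47, with a median of 0.04 that turned to -0.06 after median centring. Without the macroH2A1 line the adjusted p of Ddx5 was 0.235 and that of Sf3a2 0.275.

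**Figure D4:**
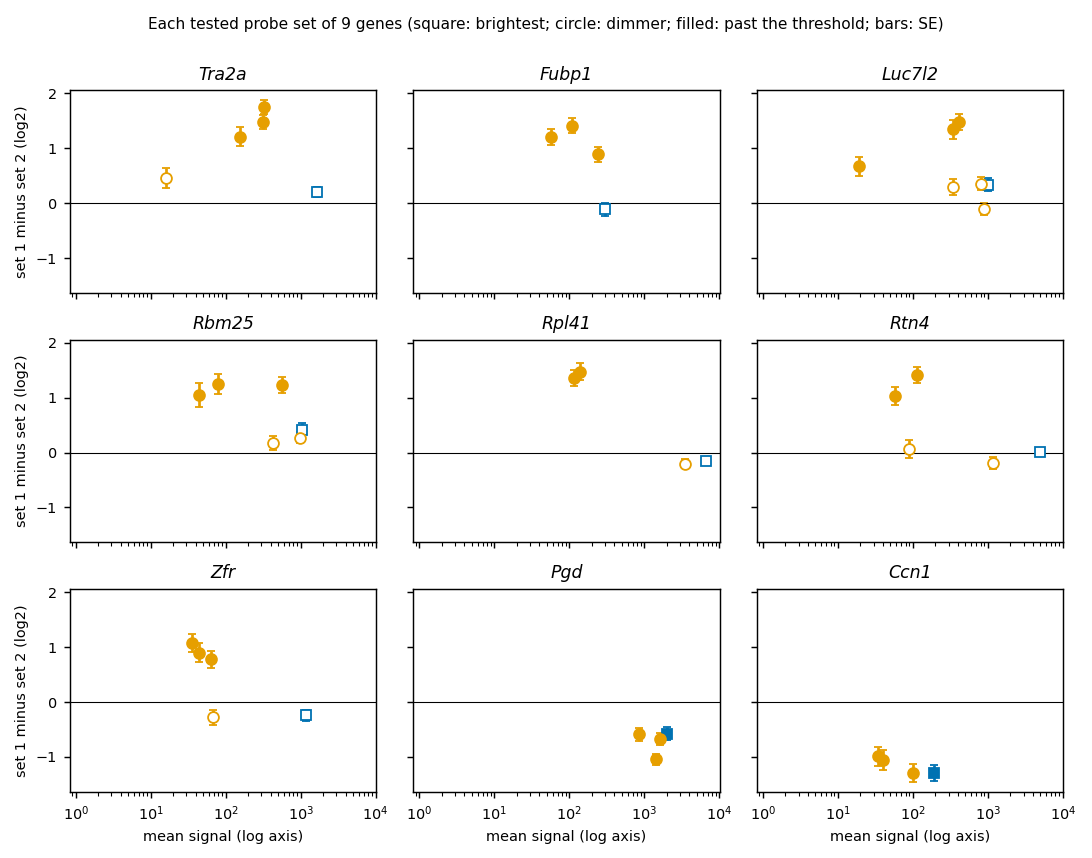
Set 1 minus set 2 (log2, with the SE of the limma fit) for every tested probe set of 9 genes against mean signal (log axis). In the first 7 genes the filled circles, dimmer probe sets past the threshold, lie above an open square, the brightest probe set; in Pgd and Ccn1 all 4 probe sets are filled and lie below 0.

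Egr1 was the lowest gene in set 1. It read 6.2 in set 1 and 308.1 in set 2 for control cells, 12.7 and 327.2 for the macroH2A1 line, and 20.8 and 1142.9 for the macroH2A2 line. In both sets the macroH2A2 line was highest, and the sets were far apart. The difference was -4.14 ± 0.22 (SE), 17.6-fold lower in set 1 (limma adjusted p = 1.01e-05). The set 1 value of the control line lies under the 10.4 used as a floor for testing, so the fold on this array depends on the pseudocount.

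Fos and Dusp1 followed with smaller differences. Fos read 61.5 and 114.6, 47.6 and 138.8, and 50.3 and 288.2 in the control, macroH2A1 and macroH2A2 lines, set 1 first; the set 1 arrays lay close together and the gap grew with the set 2 value (-1.41 ± 0.22 SE, limma adjusted p = 0.00415). Dusp1 read 116.7 and 243.9, 154 and 359.2, and 192.9 and 334, with no overlap of the sets (-0.95 ± 0.13 SE, adjusted p = 0.00240). Jun, the partner of Fos in the AP-1 transcription factor, read 355.2 and 461.9, 376.2 and 521.2, and 438.5 and 814.9 (-0.56, adjusted p = 0.0198); without the macroH2A1 line its adjusted p was 0.0519, and after quantile normalization 0.0549. Egr1, Fos, Dusp1 and Jun were the 4 lower members of a list of 22 tested immediate early genes. In the limma test 0 were higher, and of all genes 1.38% were lower and 2.13% higher. In either direction 8 reached an unadjusted p under 0.05, against 1833 of all 12088 genes. In every line 8 were lower and 3 higher, against 19.1% and 18.3% of all genes. The list's median was -0.12 (-0.22 to -0.05 over the alternatives), against 0.0014 over all genes, and by line it was 0.01, -0.12 and -0.28 in the control, macroH2A1 and macroH2A2 lines.

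Ccn1, a target of the YAP and TAZ coactivators as well as an immediate early gene, was lower in all 4 of its tested probe sets, by 0.99 to 1.30. Its brightest read 73.7 and 239.5, 67 and 210, and 185.9 and 365.7, and the macroH2A2 line was highest in both sets (-1.29 ± 0.15 SE, limma adjusted p = 0.00137). It was the 1 member called among 14 tested YAP and TAZ targets, whose median was -0.16 and reached 0 under 1 alternative. Dusp6, a phosphatase that ERK signalling induces against itself, read 682.3 and 1233.9, 803.4 and 964.8, and 637 and 964.5 (-0.56, adjusted p = 0.0161), and was the 1 called of 12 genes of MAP kinase feedback, with a median of -0.21; without the control line its adjusted p was 0.119, and after quantile normalization 0.0513. Of the targets of serum response factor and actin cytoskeleton genes, 0 of 19 were lower, and Flna, an actin crosslinker, was higher by 0.42 (adjusted p = 0.0320, but 0.145 after median centring, 0.0813 without the control line and 0.17 without the macroH2A1 line).

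Among the other genes with the largest falls, H3f3b, a gene for the replacement histone H3.3, read 63.9 and 166.5, 49.7 and 157.4, and 30.9 and 78.4 (-1.20 ± 0.15 SE, limma adjusted p = 0.00148), from its only tested probe set with 1 symbol. H1f2, a linker histone, read 1073.7 and 1263.7, 511.5 and 965.2, and 456.1 and 1376; the sets overlap, and the fall ran from 0.23 in the control line to 1.56 in the macroH2A2 line (difference -0.90, adjusted p = 0.0143, and 0.0595 after quantile normalization). Nr1d2, a nuclear receptor of the circadian clock, read 624.8 and 1119.9, 703.4 and 975.6, and 659.4 and 1195.5 (-0.71 ± 0.11 SE, adjusted p = 0.00415). Nr1d2 was the 1 gene called among 15 of the clock. Klf15, a metabolic transcription factor, differed by -0.83, Umps, the last enzyme of uridine monophosphate synthesis, by -0.71, Slc25a30, a mitochondrial carrier, by -0.68, Gbp2 and Ifi47, interferon-induced GTPases, by -0.70 and -0.77, and the dim Lgals2, a galectin, and Cysrt1 by -0.86 and -0.78. Not all of these held when a line was left out: the adjusted p was 0.225 for Umps, 0.119 for Cysrt1 and 0.0747 for Slc25a30 without the control line, and 0.131 for Umps, 0.114 for Lgals2, 0.408 for Cysrt1, 0.0584 for Klf15 and 0.0516 for Gbp2 without the macroH2A1 line.

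Genes of protein folding and of the lysosomal proton pump were also among the lower ones. Of 19 tested heat shock chaperones 4 were lower and 0 higher in the limma test, against 1.38% and 2.13% of all genes (10 at an unadjusted p under 0.05). In every line 9 were lower, against 19.1% of all genes, and the median was -0.23 (-0.35 to -0.06 over the alternatives). The list's median signal was 1.10e+03. Of brightest probe sets above 1000 in general, 4.21% were lower, with a median of -0.07. By line the medians were -0.26, -0.39 and -0.04, and 8 of the 19 lay above 0 in the macroH2A2 line. Hsph1, a nucleotide exchange factor of HSP70, read 270.6 and 796.1, 428.8 and 781.3, and 590.7 and 722.2 (-0.88 ± 0.18 SE, limma adjusted p = 0.0134). Its sets did not overlap, but the fall shrank from 1.5 in the control line to 0.28 in the macroH2A2 line, and without the control line the adjusted p was 0.0717. Chordc1, an HSP90 cochaperone, differed by -0.59 and kept its call under all 11 alternatives, whereas Dnaja1 (-0.42) and Hspa8 (-0.29), an HSP40 and the constitutive HSP70, had adjusted p values of 0.145 and 0.299 without the macroH2A1 line. Of 23 tested chaperones of the endoplasmic reticulum Hyou1 was lower, by 0.65, and Hsp90b1 higher, by 0.31, with adjusted p values of 0.21 for Hyou1 without the control line and 0.246 for Hsp90b1 without the macroH2A1 line.

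Of 37 lysosomal genes, 4 subunits of the V-ATPase, the pump that acidifies lysosomes and melanosomes, were lower by 0.36 to 0.44 (Atp6v0b, Atp6v1b2, Atp6v1c1 and Atp6v1h), and Naglu, a lysosomal hydrolase, was higher by 0.42. Over all genes 1.38% were lower and 2.13% higher, and 4.21% of brightest probe sets above 1000 were lower, with a median of -0.07. The lysosomal list, with a median signal of 1.38e+03, had a median of -0.07, with 14 of the 37 above 0. V-ATPase subunits that were not called were not counted apart from the list. Atp6v1b2 read 909.1 and 1214.2, 902.6 and 1229.1, and 1017.5 and 1361.5, so the sets did not overlap (limma adjusted p = 0.0196). Without the macroH2A1 line the adjusted p values of these 4 ran from 0.150 to 0.237, and after quantile normalization from 0.0552 to 0.0818; that of Naglu was 0.221 without the control line. Gabarapl1, which joins the autophagosome membrane, differed by -0.59 (adjusted p = 0.0118, and 0.0524 after quantile normalization). Of 70 genes of oxidative phosphorylation, 31 were lower in every line and 4 higher, against 19.1% and 18.3% of all genes. Their median was only -0.09. The list is bright, with a median signal of 2.67e+03, and brightest probe sets above 1000 had a median of -0.07 in general. Uqcr10 was the 1 gene called (-0.31, limma adjusted p = 0.0482, and 0.334 without the macroH2A1 line).

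Pgd, the enzyme of the pentose phosphate pathway that yields NADPH and ribulose 5-phosphate, was lower in all 4 of its probe sets, by 0.58 to 1.04. Its brightest read 1666.3 and 3196.2, 1283.5 and 1755.4, and 1783.9 and 2281.4 (-0.58, limma adjusted p = 0.0104), and without the control line the adjusted p was 0.0600. The macroH2A2 line's set 1 value lies just above the macroH2A1 line's set 2 value, so the sets overlap. Srxn1, which restores oxidised peroxiredoxins, read 264.1 and 506.9, 121.8 and 192.6, and 235.2 and 337.2 (-0.66, limma adjusted p = 0.0100, and 0.0899 without the control line). It was the 1 gene called of 20 NRF2 and oxidative stress genes. Of these, 9 were lower in every line and 0 higher, against 19.1% and 18.3% of all genes.

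On the higher side, protein coding genes named by the rule for the largest differences were mostly read by probe sets from sequence tags. Slc16a4, a member of the monocarboxylate transporter family, read 95.3 and 17.8, 78.1 and 14.7, and 65.6 and 15.1 (1.58 ± 0.16 SE, limma adjusted p = 0.000731). Taf15, an RNA-binding protein, read 358.7 and 106.7, 234.5 and 64.4, and 201.2 and 122.2 (1.30 ± 0.19 SE, adjusted p = 0.00282). In both genes the sets did not overlap. Mtm1, a phosphoinositide phosphatase, read 291.3 and 29.6 in the control line but 55.5 and 37.6 in the macroH2A2 line (1.63 ± 0.32 SE, adjusted p = 0.00935). Of its other probe sets, 1 made from the RefSeq mRNA, at nearly the same mean signal, differed by 0.15 (adjusted p = 0.595), and 1 made from the same tag as the brightest differed by 1.22 (0.0142). The zinc finger genes Zfp950 and Zfp40 were higher by 1.12 and 1.19, Rab5b, an early endosome GTPase, by 1.12, Lin52, a subunit of the DREAM complex, by 1.10, the channel gene Trpc2 by 1.09, and Ccdc25 by 0.99. A probe set annotated to Mir1931, which a poly(A)-primed array does not read as a mature miRNA, was higher by 1.12, and 1 annotated to Ifnz by 0.99, with an adjusted p of 0.104 for the latter without the control line.

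Lists of cell surface and matrix genes had medians above 0. Of 23 integrin and adhesion genes 3 were higher and 0 lower, against 2.13% and 1.38% of all genes. In every line 11 were higher and 0 lower, against 18.3% and 19.1%. The median of 0.24 stayed between 0.14 and 0.29 under all alternatives. By line it was 0.34, 0.28 and 0.04 in the control, macroH2A1 and macroH2A2 lines. In the macroH2A2 line 14 of 23 lay above 0, and the median was 0.02 after quantile normalization. Ncam1, a homophilic adhesion molecule, read 479.1 and 233.1, 345.5 and 162.9, and 328.3 and 273.6 (0.75, limma adjusted p = 0.0139). Itga9 and Itga4, integrin alpha chains, were higher by 0.62 and 0.52. In the macroH2A2 line the difference of Ncam1 was 0.25 and that of Itga4 0.21, and without the control line the adjusted p values were 0.0906 for Ncam1, 0.209 for Itga9 and 0.254 for Itga4; without the macroH2A1 line they were 0.0781, 0.0792 and 0.205. Of 28 matrix and remodelling genes Plat, the tissue plasminogen activator, was higher by 0.68 (adjusted p = 0.0209) and Col5a1, a fibrillar collagen chain, by 0.69 (0.0349), and without the control line these became 0.121 and 0.212. The list's median was 0.19, but 0.57, 0.12 and -0.04 in the control, macroH2A1 and macroH2A2 lines, with 13 of 28 members above 0 in the last. The summed signal of 10 fibroblast markers was 195 to 292.4 in set 1 and 182.6 to 225.9 in set 2, and its part in the matrix genes was not tested.

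Cenpe, a kinetochore motor that aligns chromosomes, read 507.9 and 319.9, 480.1 and 248.8, and 418.1 and 186.3 (0.88, limma adjusted p = 0.00303), and no array of set 2 reached any of set 1. It kept its call under all 11 alternatives. Kif2c and Cenpf, a microtubule depolymerase and a kinetochore protein, were higher by 0.47 and 0.48 but had adjusted p values of 0.133 and 0.136 after median centring. These were the 3 called of 35 G2/M and mitosis genes, where 2.13% of all genes were higher. The list's median was 0.06 and turned to -0.04 after median centring. By line the list's medians were -0.02, -0.07 and 0.32 in the control, macroH2A1 and macroH2A2 lines, with 17, 13 and 33 members above 0. Among chromatin regulators Kmt2a, a histone H3 lysine 4 methyltransferase, read 258.9 and 153.9, 242.1 and 148.7, and 221.7 and 118.4 (0.72, adjusted p = 0.00595), and it too kept its call under all 11. Chd4, a nucleosome remodeller, was higher by 0.36 and Kat2b, a histone acetyltransferase, lower by 0.33, at adjusted p values of 0.0451 and 0.0408, which became 0.335 and 0.275 without the macroH2A1 line.

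Other lists held scattered calls in both directions. Of 43 interferon-stimulated genes Eif2ak2, the kinase PKR, and Oas1b were higher by 0.66 and 0.88, and Gbp2 and Ifi27 lower by 0.70 and 0.45. Rpl37 and Rpl39 were higher by 0.60 and 0.55 among 43 ribosomal protein genes, Mcm4, a subunit of the replicative helicase, and Tyms, thymidylate synthase, higher and Fen1, the flap endonuclease, lower among 39 genes of G1/S and DNA replication, and Cpt1a, which admits fatty acids to mitochondria, higher by 0.93 among 14 of fatty acid oxidation. Kit, the receptor for stem cell factor that melanocytes depend on, read 121.1 and 30.6, 49.8 and 27.2, and 57.8 and 31 (0.94, limma adjusted p = 0.0130). All of these lost the call when 1 line was left out, with adjusted p values of 0.0559 for Eif2ak2, 0.0845 for Oas1b, 0.282 for Rpl39, 0.234 for Tyms, 0.218 for Fen1 and 0.0816 for Kit without the control line, 0.275 for Ifi27, 0.0516 for Gbp2, 0.0706 for Rpl37 and 0.0691 for Cpt1a without the macroH2A1 line, and 0.0515 for Mcm4 without the macroH2A2 line. So did 5 single members of further lists: Id2, an inhibitor of DNA binding (0.36), Atp7a, a copper pump of the melanosome (0.36), Odc1, the first enzyme of polyamine synthesis (0.49), the chemokine Cxcl10 (-0.42) and Mrpl50 of the mitochondrial ribosome (-0.47), whose adjusted p values without the macroH2A1 line were 0.222, 0.279, 0.109, 0.333 and 0.225. Of 46 lists with at least 5 tested members 15 held no call, among them the p53 targets, with a median of -0.24 over 20 genes, 7 of them at an unadjusted p under 0.05.

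In all, 60 distinct genes of the lists passed, 29 higher and 31 lower; 31 still passed after quantile normalization, 43 after median centring, 28 without the control line, 25 without the macroH2A1 line and 52 without the macroH2A2 line, and 8 passed under every alternative.

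In several programmes the sets differed in opposite directions in different lines, so the average over lines hides them. Of 31 tested targets of ATF4, the transcription factor of the amino acid response, 0 passed the limma test and 1 reached an unadjusted p under 0.05. Their median difference was 0.10 for control cells, 0.66 for the macroH2A1 line and -0.84 for the macroH2A2 line. Atf5, a transcription factor in this response, read 295.3 in set 1 and 366.3 in set 2 for control cells, 372.1 and 173.6 for the macroH2A1 line, and 142.6 and 709.5 for the macroH2A2 line. Sesn2, a leucine sensor, read 137.8 and 79.5, 178.8 and 85.2, and 67.1 and 99.4. The members above 0 numbered 21 of 31 for control cells, 28 for the macroH2A1 line and 2 for the macroH2A2 line, so the macroH2A2 line ran against the other two.

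Targets of the hypoxia-inducible factors gave medians of 0.55, 0.07 and -0.45 in the control, macroH2A1 and macroH2A2 lines, with 28, 17 and 5 of 29 members above 0. Pdk1, which keeps pyruvate out of the mitochondrion, read 1947.3 and 808.1, 1228.4 and 740.4, and 503.5 and 614.4, set 1 first. Ankrd37 read 280.7 and 87.1, 157.5 and 82.3, and 41 and 61.6. In both genes the set 2 arrays lay close together, and the set 1 arrays ran from well above them in the control line to below them in the macroH2A2 line. Glycolysis genes gave 0.25, -0.08 and -0.24. Growth-related lists ran the other way: G1/S and DNA replication genes gave -0.30, -0.26 and 0.31, with 3, 7 and 35 of 39 members above 0, and ribosome biogenesis genes -0.32, -0.28 and 0.19, with 1, 7 and 33 of 37. Sterol synthesis genes gave -0.26 in the control line against 0.20 and 0.18. With 1 array per line and set these differences between lines have no spread to be tested against, and over all genes the medians were 0.04, -0.0064 and -0.03.

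**Figure D5:**
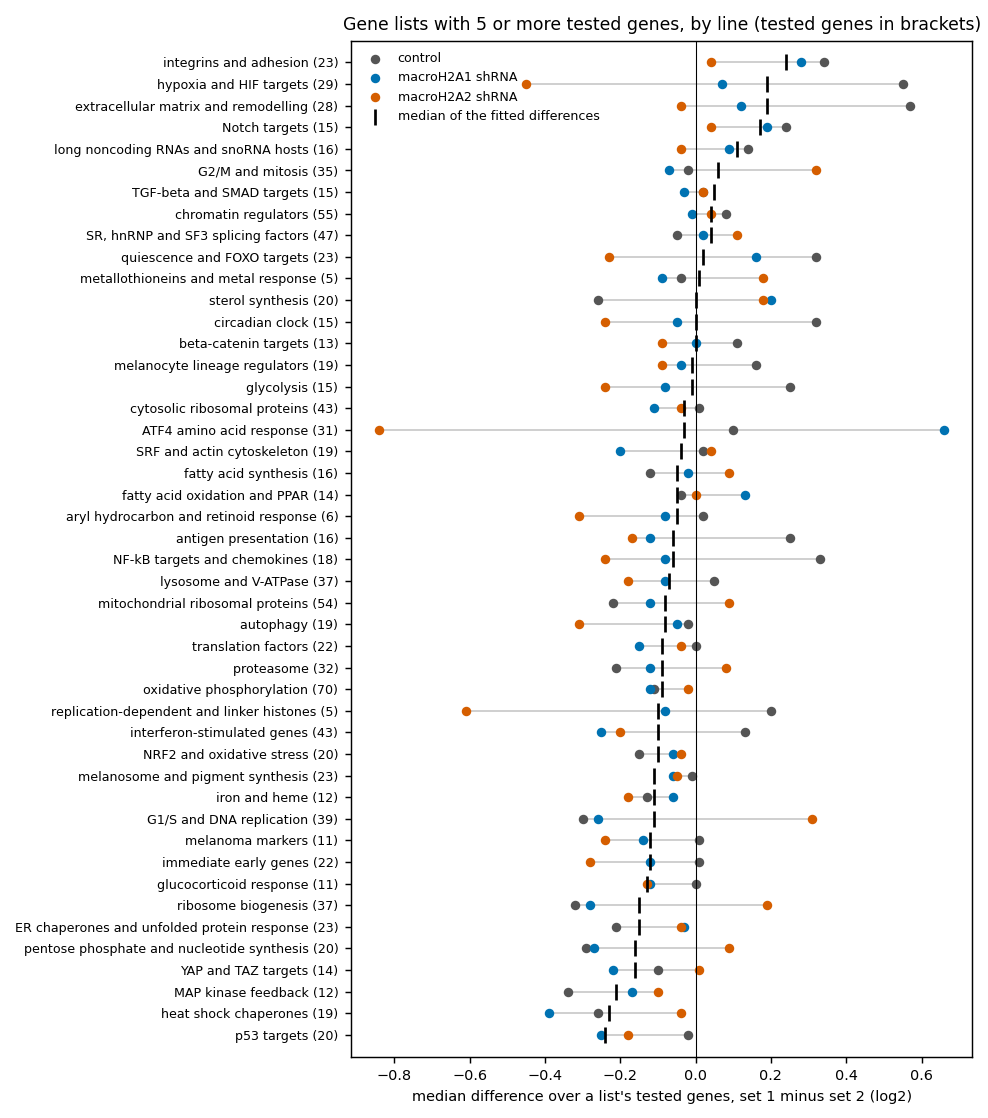
Median difference, set 1 minus set 2 (log2), of the 46 gene lists with at least 5 tested genes, as 1 point per line and a bar for the median of the fitted differences. The points of the ATF4 list lie at 0.10, 0.66 and -0.84 and those of the hypoxia list at 0.55, 0.07 and -0.45. Those of the adhesion list lie at 0.34, 0.28 and 0.04.

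Pigment cell genes were strongly expressed in both sets: 10 of 11 melanoma markers had a mean signal above 20, the exception being Ednrb. All 11 were tested and 0 passed the limma test (2 at an unadjusted p under 0.05), the list's median was -0.12, and their summed signal was 42369.6 to 45612.4 in set 1 and 43537.4 to 53234 in set 2. Of the markers of other cell types, the summed signal was 94 to 142.8 against 96.3 to 104.6 for 9 leukocyte genes, 195 to 292.4 against 182.6 to 225.9 for 10 fibroblast genes, 50.1 to 63.8 against 41.1 to 55 for 8 keratinocyte genes, 118.2 to 285.8 against 123.2 to 177.9 for 8 endothelial genes and 2.1 to 6.2 against 1.9 to 5.6 for 2 erythroid genes. Of these 37 genes 11 were tested, 0 passed and 1 reached an unadjusted p under 0.05, and a mean signal under 20 was found for 6 of the leukocyte, 7 of the fibroblast, 7 of the keratinocyte and 7 of the endothelial genes and both erythroid ones. Their highest mean signal was 123.6, of Egfl7. In such bulk RNA, fewer cells of a kind and less RNA per cell cannot be told apart. The targeted Macroh2a1 read 444.2 and 319.1 in the line labelled macroH2A1 shRNA against 1170.5 to 1271.2 in the other lines, and its difference between sets was 0.17 (adjusted p = 0.426). Cdk8 was lower in the control line of both sets, at 245.8 and 224 against 532.5 to 680.7, and differed between sets by -0.15 (adjusted p = 0.518).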

How the data were processed

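The deposited value is a signal intensity per probe set on a linear scale, made by the authors with MAS5 per the submitters' processing notes; the MAS5 version and the genome build were not given in the sources used here. Of 45101 probe sets, 64 controls were left out of the tests; 34945 of the others have 1 gene symbol in the platform annotation, 932 several and 9160 none. Intensities were analysed as log2(signal + 16). Probe sets with a mean signal at or above the 40th percentile, 10.4, entered 1 limma fit (limma 3.58.1, R 4.3.3; lmFit, eBayes with a variance trend) with the line as a block, so that arrays were paired by line, leaving 2 residual and 9.09 prior degrees of freedom. The tests are two-sided, with Benjamini-Hochberg adjustment over 27025 probe sets and a threshold of 0.05. The replicate number is the contrast itself, so the paired samples are the cultures of a line. The scripts were tested on simulated data. The number of arrays limits the precision. The SE and p-values rest only in part on the spread between a probe set's 3 line differences. Its variance is drawn toward the trend over all tested probe sets, which carries more weight (9.09 against 2 degrees of freedom).

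The named genes are the 15 largest rises and 15 largest falls among genes past the threshold with 1 sign in 3 lines (brightest probe set; clone names counted only), up to 4 members per list with the smallest p, and Macroh2a1 and Cdk8. The 52 lists hold 1334 symbols, of which 1202 matched and 1077 were tested. Members and lists were chosen with earlier results of these data known. Promoters are from RefSeq, matched by symbol.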

Additional observations from a re-analysis of the deposited data

Results flagged for a closer look

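In 9 gene lists the median difference between the sets was at least 0.2 above 0 in 1 line and at least 0.2 below 0 in another. With 1 array per line and set, none of these differences between lines was tested, and no explanation was weighed. The span from the highest to the lowest of the 3 within-line medians was 1.5 for targets of ATF4, 1.0 for hypoxia-inducible targets and 0.49 for glycolysis. It was 0.61 for G1/S and DNA replication and 0.46 for sterol synthesis. Replication-dependent and linker histones spanned 0.81, from 0.20 in the control line to -0.61 in the macroH2A2 line, over 5 tested genes; after quantile normalization the lines stood at -0.14, -0.11 and -0.65, all below 0. Chemokines and NF-kB targets spanned 0.57, from 0.33 in the control line to -0.24 in the macroH2A2 line, but the control value was 0.18 after quantile normalization. The circadian clock spanned 0.56 and quiescence and FOXO targets 0.55, each with the control line at 0.32; after quantile normalization the control line stood at -0.05 for the clock and at 0.21 for the FOXO list.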

How the results depend on the processing

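The fit is paired by line; with no replicate block, the line term left out, 1069 probe sets with 1 symbol were higher in set 1 and 155 lower, and 171 genes higher and 90 lower. In the same order of 4 counts, with 1260, 278, 258 and 167 as reported, quantile normalization gave 524, 146, 103 and 65, and median centring 823, 420, 102 and 248. No filter gave 150, 15, 17 and 6, with 45037 probe sets to adjust over, and the 60th percentile filter 630, 168, 134 and 101, with fewer tested. Without a variance trend 88 probe sets and 39 genes were lower. Leaving out a line in turn gave 648 to 1888 and 57 to 765 probe sets, and 100 to 619 and 29 to 502 genes, higher and lower. All tested probe sets past the threshold, 2661, came to 1102 after quantile normalization, 301 without a filter, 1182 with the stricter filter and 1337 to 3914 without a line. Counts at 1.5-fold, 468 higher and 18 lower, came to 228 and 32 after quantile normalization, 1028 and 32 at a pseudocount of 1, and 72 and 8 at 64; 29 were lower after centring and 279 higher with the stricter filter. Within-gene ratios, 863 higher and 82 lower, came to 211 and 49 after quantile normalization, 0 and 0 at a pseudocount of 1 (2481 at an unadjusted p under 0.05 in limma), 385 and 25 without a filter, and 310 to 989 and 25 to 233 without a line; 231 were lower at a pseudocount of 64 and 131 with the stricter filter. The cause of these shifts was not tested. Of 325 values of the 30 named genes over the alternatives, 283 kept direction and call, 42 kept the direction alone and 0 reversed. Of 506 list medians, 472 moved by less than 1 SD of the line medians, a yardstick that is wide where the lines disagree. The median of the ATF4 list, -0.03 as reported, ran from -0.3 to 0.35, and that of glycolysis, -0.01 as reported, from -0.14 to 0.09. The ratio comparison and its alternatives were chosen after seeing the data.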
